A study of Mus musculus with 14 samples.

Results

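Ubd, Isg15, Uba7, Ube2l6 and Usp18 are 5 genes of the interferon-inducible ubiquitin-like modifiers and the enzymes that attach and remove them. They were followed in B16F10 melanomas, a mouse melanoma line, after the transfer of cytotoxic T lymphocytes (CTLs). They were found by gene name among the 41174 probes of an Agilent one-colour whole mouse genome array, where Uba7 carries its older name Ube1l. Each is measured by 1 probe of 60 bases, and all 5 are among the 17035 genes that were well above background on at least 3 of the 14 arrays. The 5 genes were chosen from their known roles and on log2 signals of these same 14 arrays, whose differences between arms were known when the set was drawn up. Those differences are therefore given as a description with no p-value of their own; where it is said how many of the 5 passed in the fit across all genes, nothing is read from the count.

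C57BL/6 mice carried B16F10 tumours for 9 days before day 0, when the treated mice received in vitro activated, gp100-specific CTLs marked by CD90.1. In the first arm, CTL mice were also given anti-IFNg, an antibody against interferon gamma, by intraperitoneal injection on days 0 and 2 (antibody tumours, days 3, 5 and 7). In the second arm, CTL mice were given control rat IgG on the same days (IgG tumours, days 3, 5 and 7). The third arm received CTLs alone (CTL tumours, days 1, 3, 5 and 7), and the fourth received no cells (untreated tumours, days 1, 3, 5 and 7). Each array holds the pooled RNA of 3 tumours in the antibody and IgG arms and of 4 tumours in the CTL and untreated arms. Each arm has 1 array per day, so the days serve as the replicates of an arm, and the spread between mice is not measured. All arms share the strain and the tumour line, and the whole tumour was extracted, so tumour, immune and vessel RNA are mixed.

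Ubiquitin-like proteins are joined to lysines of other proteins by a cascade of an activating enzyme (E1), a conjugating enzyme (E2) and a ligase (E3). Ubd encodes FAT10, a tandem ubiquitin-like protein that sends its targets to the proteasome and is known to be induced by interferon gamma and tumour necrosis factor. Isg15 encodes a modifier made from a pair of ubiquitin-like domains, which is attached to newly made proteins and also secreted. Uba7 is the E1 of ISG15, Ube2l6 is its main E2, and Usp18 is the protease that takes ISG15 off again and also restrains signalling from the type I interferon receptor. FAT10 does not use Uba7: its E1 is Uba6 and its E2 is Ube2z.

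Promoter windows are shown for the modifiers and for Uba7, because these are the windows with a match to the motifs searched. They run from 250 bases before to 50 bases after the start of the gene and come from RefSeq (GRCm38.p6), whose promoter table held 4 of the 5 genes; Usp18 was not among them. Capitals mark the matches, read on either strand, of AANNGAAA (a core bound by interferon regulatory factors), of the core of the interferon-stimulated response element (GAAA and GAAA with any 2 bases between) and of the NF-kappaB consensus. The Ubd window lies at chr17:37193642-37193941 on the plus strand, the Isg15 window at chr4:156200769-156201068 on the minus strand and the Uba7 window at chr9:107975317-107975616 on the plus strand.
Ubd: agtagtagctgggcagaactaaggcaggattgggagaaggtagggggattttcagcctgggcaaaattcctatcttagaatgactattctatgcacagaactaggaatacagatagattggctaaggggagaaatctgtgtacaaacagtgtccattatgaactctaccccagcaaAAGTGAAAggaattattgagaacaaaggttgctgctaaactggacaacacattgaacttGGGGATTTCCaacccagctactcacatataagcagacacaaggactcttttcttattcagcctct
Isg15: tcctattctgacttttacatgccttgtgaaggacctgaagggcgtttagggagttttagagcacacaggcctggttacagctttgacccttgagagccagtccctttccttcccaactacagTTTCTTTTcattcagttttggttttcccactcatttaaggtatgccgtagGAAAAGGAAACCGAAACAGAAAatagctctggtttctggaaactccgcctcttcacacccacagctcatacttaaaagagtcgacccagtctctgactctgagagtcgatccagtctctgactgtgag
Uba7: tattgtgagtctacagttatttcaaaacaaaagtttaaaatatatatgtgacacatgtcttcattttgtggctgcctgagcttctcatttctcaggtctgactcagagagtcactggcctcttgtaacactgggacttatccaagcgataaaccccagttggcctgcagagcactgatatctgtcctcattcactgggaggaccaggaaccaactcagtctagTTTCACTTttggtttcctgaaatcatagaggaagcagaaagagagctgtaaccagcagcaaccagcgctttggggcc

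The Ubd window held 1 match to AANNGAAA, which begins 74 bases before the start, and 1 to the NF-kappaB consensus, which begins 15 bases before it. The Isg15 window held 3 matches to the response element core, which overlap each other in the run of capitals that begins 78 bases before the start. It held 4 matches to AANNGAAA, 3 of them inside that run and 1 on the reverse strand at 128 bases before the start. The Uba7 window held 1 match to AANNGAAA, on the reverse strand 27 bases before the start. The window of Ube2l6 (chr2:84798578-84798877, plus strand) held none of these motifs, and TTCNNNGAA, the gamma-activated site, which is its own reverse complement, was in none of the 4 windows. Of all 32851 windows of the table, 3.44% held the response element core, 23.9% held AANNGAAA, 8.30% held TTCNNNGAA and 4.51% held the NF-kappaB consensus. A match is a string of letters and no measured site, and a link between matches and the course of the genes was not tested.

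Values are the log2 of the processed signal minus the 75th percentile of the array, and a value describes 1 probe and is not set against that of another probe. The 75th percentile of the signal lay between 301 and 536 units, and 48.9% to 59.7% of the 43379 spots that are no controls were well above background. Each day was hybridised on its own slide, and an arm always took the same place on it, so effects of the arm and of that place cannot be told apart. In tests across all genes with limma (adjusted p under 0.05, days 3, 5 and 7), 2139 of 17034 genes (12.6%) differed between antibody and IgG tumours and 5362 of 17034 (31.5%) between CTL and untreated tumours. These counts depend on the arrays in the fit: without day 5 they were 50 and 661, without day 3 they were 399 and 1107, and without day 7 they were 1376 and 5111. With the day 1 arrays added they were 2 and 1839, and why was not tested.

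The modifier Ubd was the gene with the widest separation among the 5. In antibody tumours it stood at -2.62, -3.77 and -6.14 on days 3, 5 and 7, against 2.78, 2.59 and 0.16 in IgG tumours. In CTL tumours it stood at -3.01, 3.52, 2.60 and 0.53 on days 1, 3, 5 and 7, against -4.09, -6.70, -4.86 and -6.52 in untreated tumours. The IgG and CTL tumours of days 3 to 7 were high and did not overlap with the antibody or the untreated tumours, and the CTL tumour of day 1 was low. Ubd was not well above background on any of the 4 untreated arrays, nor on the antibody array of day 7.

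The Ubd signal was 42.4-fold lower in antibody than in IgG tumours on day 3 and 82.3-fold lower on day 5. On day 7 the antibody array gives only an upper limit, and the signal there was at least 27.9-fold lower. The mean log2 difference of -6.02 includes that measured day 7 value, and it was -3.89 after normexp background correction with quantile normalization. Against untreated tumours, which give only a bound, Ubd was at least 97.7-fold higher in CTL tumours over days 3 to 7, where the measured means were 2.22 and -6.03. With normexp and quantile normalization the measured log2 difference was 4.68, smaller than this bound on the processed signal. Both normexp values include an offset of 50 added to each signal, which narrows the log2 differences of dim probes. They are therefore not on the scale of the bound. The bound was 244-fold on day 3, 131-fold on day 5 and 29.2-fold on day 7. These bounds set the CTL value against the dimmest signal that is well above background on the untreated array, or the probe's own value where that is higher. The bounds on Ubd hold against that reference, which is no detection limit of the Ubd probe itself. On day 1 the untreated value of -4.09 was not below the dimmest such signal, and it was still not well above background.

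The probe of Isg15, the other modifier, stood at 1.18, 0.85 and 0.55 in antibody tumours on days 3, 5 and 7, against 5.50, 4.24 and 3.04 in IgG tumours. It stood at 1.04, 5.45, 3.57 and 2.40 in CTL tumours on days 1, 3, 5 and 7, against 0.83, 0.61, 0.43 and 0.79 in untreated tumours. The highest antibody value lay below the lowest IgG value, and the lowest CTL value from day 3 on lay above the highest untreated value. Isg15 was 10.6-fold lower in antibody than in IgG tumours (log2 difference -3.40 ± 0.91, SD over days, n = 3) and 9.16-fold higher in CTL than in untreated tumours (3.20 ± 1.61, n = 3). The deposited annotation places this probe on chromosome 17 (build mm8), whereas RefSeq places Isg15 on chromosome 4. The probe sequence was not used here, so signal from a near-identical copy cannot be told apart from that of Isg15.

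Uba7, the E1 that loads ISG15, had the smallest differences of the 5. It stood at 1.42, 1.30 and 0.92 in antibody tumours on days 3, 5 and 7, against 3.81, 3.28 and 2.09 in IgG tumours. It stood at 1.45, 3.62, 2.96 and 2.19 in CTL tumours on days 1, 3, 5 and 7, against 1.51, 1.10, 1.08 and 1.35 in untreated tumours. On day 1 the CTL tumour was level with the untreated one, and from day 3 on the CTL and IgG tumours were high without overlap. Uba7 was 3.59-fold lower in antibody than in IgG tumours (log2 difference -1.85 ± 0.62, SD over days, n = 3) and 3.35-fold higher in CTL than in untreated tumours (1.74 ± 0.85, n = 3).

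Ube2l6, the E2 that receives ISG15 from Uba7, stood at -1.06, -1.09 and -1.24 in antibody tumours on days 3, 5 and 7, against 2.65, 1.70 and 0.65 in IgG tumours. It stood at -1.01, 2.56, 1.22 and 0.58 in CTL tumours on days 1, 3, 5 and 7, against -1.27, -1.83, -1.15 and -0.43 in untreated tumours. Its antibody values were nearly flat, while the untreated value of day 7 was 1.40 above that of day 3. Ube2l6 was 6.96-fold lower in antibody than in IgG tumours (log2 difference -2.80 ± 0.91, SD over days, n = 3) and 6.00-fold higher in CTL than in untreated tumours (2.59 ± 1.70, n = 3).

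Usp18, the ISG15 protease, stood at -0.39, -0.70 and -1.69 in antibody tumours on days 3, 5 and 7, against 3.65, 2.84 and 1.69 in IgG tumours. It stood at -0.79, 3.69, 2.32 and 1.25 in CTL tumours on days 1, 3, 5 and 7, against -0.99, -1.59, -1.83 and -1.78 in untreated tumours. Again the day 1 CTL tumour was near the untreated ones and the later CTL and IgG tumours were all higher. Usp18 was 12.6-fold lower in antibody than in IgG tumours (log2 difference -3.65 ± 0.35, SD over days, n = 3) and 17.9-fold higher in CTL than in untreated tumours (4.16 ± 1.13, n = 3).

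**Figure D1:**
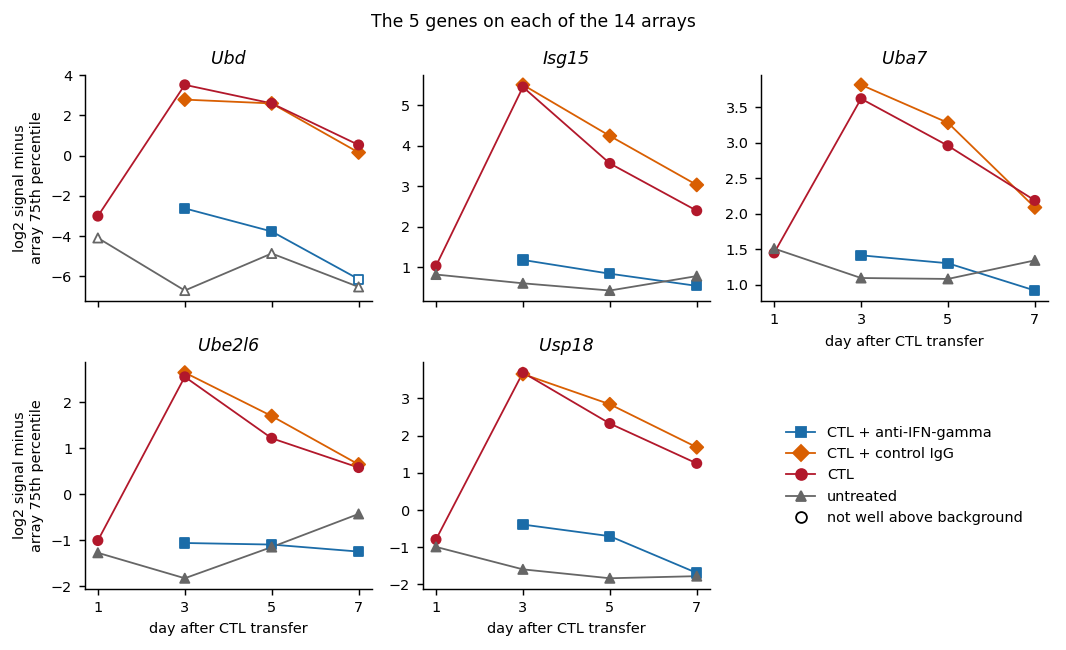
Log2 signal minus the array's 75th percentile (vertical axis, a scale per gene) against the day after CTL transfer for the 5 genes, 1 point per array and 1 colour per arm; open points were not well above background. IgG and CTL tumours peak on day 3 and fade, as with Isg15 at 5.50 and 5.45 on day 3, while antibody and untreated tumours lie below them from day 3 on.

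In the fit across all genes, 5 of 5 genes were lower in antibody than in IgG tumours, where 5.93% of all genes passed in that direction, and 5 of 5 were higher in CTL than in untreated tumours, where 10.1% passed. The arms did not overlap for 5 of 5 genes in both comparisons, as was so for 14.9% of all genes lower with the antibody and 12.3% of all genes higher with CTLs. The choice of the genes used these comparisons, so nothing is read from the counts. The median log2 difference of the 5 was -3.40 between antibody and IgG tumours, beside 0.06 for all genes, and 3.20 between CTL and untreated tumours, beside -0.10 for all genes. In bulk RNA, fewer cells of a type that expresses a gene and less RNA of it per cell cannot be told apart.

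The excess of CTL over untreated tumours was smaller on day 7 than on day 3 for Isg15, Ube2l6, Usp18 and Uba7, while that of Ubd is known only by its bounds. For Isg15 it was 0.21, 4.84, 3.13 and 1.61 on days 1, 3, 5 and 7, and for Ube2l6 it was 0.27, 4.38, 2.37 and 1.01. For Usp18 it was 0.20, 5.29, 4.16 and 3.03, and for Uba7 it was -0.06, 2.52, 1.87 and 0.84. Among these 4 genes Usp18 kept the largest difference on day 7. Ubd alone had a day 1 difference over 1, at 1.08, with the untreated array not well above background, and 1.95% of all genes were higher by more than 1 on that day. There is 1 array per arm on day 1 and no test of it.

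The fading was seen in CTL and in IgG tumours. From day 3 to day 7 the IgG values changed by -2.63 for Ubd and -2.47 for Isg15, and by -1.72 for Uba7, the smallest change of the 5. In CTL tumours the changes were -2.99 for Ubd, -3.05 for Isg15, -1.43 for Uba7, -1.97 for Ube2l6 and -2.44 for Usp18. Over all genes the median change from day 3 to day 7 was 0.10 in IgG tumours and 0.07 in CTL tumours. In antibody tumours Ubd changed by -3.52 to a value not well above background and Usp18 by -1.30, whereas Ube2l6 changed by -0.19.

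Taking off the same-day IgG value, the antibody difference also narrowed for the 3 enzymes and Isg15. For Isg15 it was -4.32, -3.40 and -2.49 on days 3, 5 and 7, for Uba7 it was -2.40, -1.97 and -1.17, and for Ube2l6 it was -3.71, -2.80 and -1.90. Usp18 varied least, at -4.04, -3.54 and -3.38. Ubd differed by -5.41, -6.36 and -6.29, where the last is measured against an antibody value below background.

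**Figure D2:**
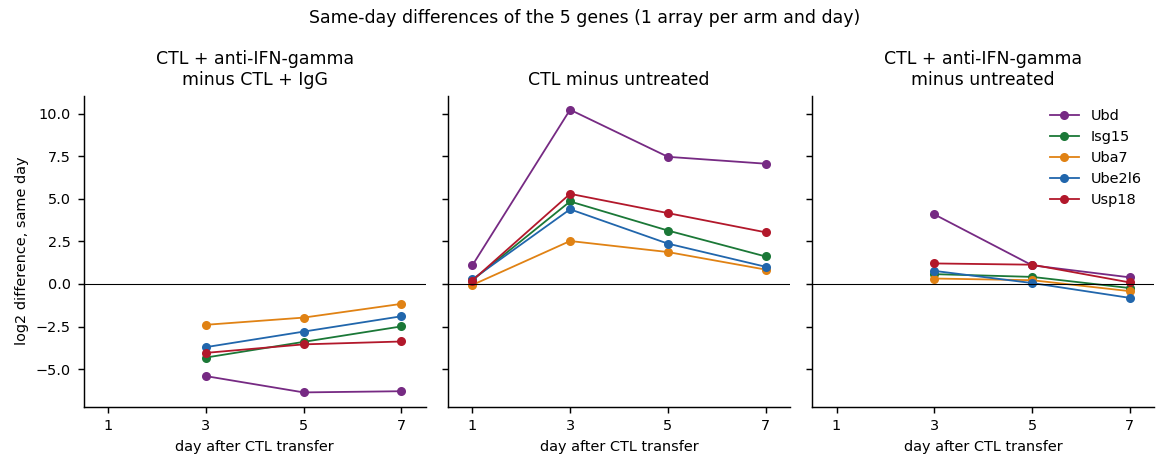
Same-day log2 differences (vertical axis) against the day after CTL transfer in 3 comparisons, 1 line per gene; each point is 1 array minus another, and those of Ubd that use an array not well above background are measured values, not bounds. CTL minus untreated is close to 0 on day 1 for 4 genes, highest on day 3 and smaller on day 7, as with Usp18 at 0.20, 5.29 and 3.03.

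The antibody arm was also set against tumours without CTLs. This comparison shares its antibody arrays with the IgG comparison and its untreated arrays with the CTL comparison, so it adds no independent data. None of the 5 genes passed in the fit across all genes, where 0.158% of genes did (27 of 17035), and none of the 5 was without overlap between the arms, as 5.25% of all genes were with the antibody higher and 6.17% with it lower. At an unadjusted p under 0.05 it was 1 of the 5 and 1175 of all genes, and the 27 became 1 without day 3, 2 without day 5 and 0 with the day 1 arrays added. The log2 difference was 0.25 ± 0.43 for Isg15, 0.04 ± 0.40 for Uba7, 0.00 ± 0.79 for Ube2l6 and 0.81 ± 0.62 for Usp18 (SD over days, n = 3). Usp18 was 1.20 and 1.13 higher with the antibody on days 3 and 5, and 0.09 higher on day 7. A p above the threshold does not show that the arms were alike.

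For Ubd only bounds against untreated tumours can be given. On day 3 its signal in the antibody tumour was at least 3.46-fold above that of the untreated tumour, at least 1.59-fold on day 5, and on day 7 neither array was well above background. The measured values of the 5 genes were 0.32 to 4.08 higher in the antibody than in the untreated tumour on day 3 on the log2 scale. On day 7 Isg15, Uba7 and Ube2l6 were lower in the antibody tumour, by log2 differences of -0.24, -0.42 and -0.82.

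Control IgG with CTLs against CTLs alone gave small differences. The log2 difference was -0.37 for Ubd, 0.46 for Isg15, 0.14 for Uba7, 0.21 for Ube2l6 and 0.30 for Usp18, with SDs over days of 0.37, 0.35, 0.22, 0.23 and 0.30. None of the 5 passed in limma, where 0.0117% of genes did (2 of 17034, and 0 without day 3 or without day 7), and none was without overlap, as 12.8% of all genes were with IgG higher and 8.73% with it lower. At an unadjusted p under 0.05 it was 0 of the 5 and 3208 of all genes. The largest same-day differences were -0.73 for Ubd on day 3 and 0.68 for Isg15 on day 5.

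The partners of the 5 genes were taken from lists of ubiquitin and ubiquitin-like conjugation by function, 123 genes of which 115 were tested with limma over all genes. In antibody against IgG tumours 5 rose and 8 fell, which is 4.35% and 6.96% of them beside 6.63% and 5.93% of all genes. In CTL against untreated tumours 10 rose and 21 fell, which is 8.70% and 18.3% of them beside 10.1% and 21.4% of all genes. The median difference of the lists was 0.04 in the first comparison and -0.15 in the second, beside 0.06 and -0.10 for all genes. Without day 5 none of the 115 passed in either comparison, without day 3 the counts were 1 and 5, and with the day 1 arrays added they were 0 and 5. Without day 7 they were 5 and 34. None of the 115 passed between antibody and untreated tumours (1 at an unadjusted p under 0.05) or between IgG and CTL tumours (18 at an unadjusted p under 0.05).

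The ISG15 partners are 9 genes, all tested: ligases, other E2s, proteins that hold Usp18 at its receptor, the ubiquitin ligase subunit that marks it for degradation, and a surface receptor chain. In antibody tumours 4 fell and 1 rose, with a median of -0.61, and in CTL tumours 5 rose and 1 fell, with a median of 0.75. Over all genes 5.93% fell and 6.63% rose in the first comparison, and 10.1% rose and 21.4% fell in the second. Herc6, the main ISG15 ligase in mice, averaged -2.04 ± 0.18 in antibody tumours and 0.10 ± 1.12 in IgG tumours (SD, n = 3 days each; log2 difference -2.14, SE 0.49, limma adjusted p = 0.0274). Against untreated tumours Herc6 rose by 2.14 in CTL tumours (SE 0.49, limma adjusted p = 0.0148). Herc6 passed in 7 of 12 alternatives with the antibody, not without day 5 or day 7, and in 10 of 12 with CTLs, not without day 5. A second Herc6 probe moved the same way, while another was well above background on 1 array of 14.

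Trim25, a ubiquitin ligase that also joins ISG15 to targets in human cells, averaged 2.55 ± 0.12 in antibody tumours and 3.87 ± 0.48 in IgG tumours (log2 difference -1.32, SE 0.24, limma adjusted p = 0.0113). It rose by 1.44 in CTL against untreated tumours (limma adjusted p = 0.00428). Stat2, a signal transducer of type I interferon that brings Usp18 to the receptor, stood at 0.16, 0.02 and -0.37 in antibody tumours on days 3, 5 and 7, against 3.59, 2.72 and 1.47 in IgG tumours. It thus followed the same course as the 5 genes, with a log2 difference of -2.66 (SE 0.48, limma adjusted p = 0.0117), and rose by 3.13 in CTL against untreated tumours (limma adjusted p = 0.00337). Both genes passed in 9 of 12 alternatives with the antibody, not without day 3 or day 5, and in 11 of 12 with CTLs, not without day 5. Ifnar2, the receptor chain to which Usp18 binds, rose by 0.75 in CTL tumours (SE 0.22, limma adjusted p = 0.0343), and in antibody against IgG tumours its difference was -0.61 (limma adjusted p = 0.108). The Ifnar2 call held in 6 of 12 alternatives, not without day 3 or day 5.

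Skp2, the substrate receptor of the ligase that degrades Usp18 in human cells, went the other way. It averaged -0.20 ± 0.09 in antibody tumours and -1.05 ± 0.54 in IgG tumours, a rise of 0.86 (SE 0.19, limma adjusted p = 0.0228). In CTL tumours it averaged -1.36 ± 0.22, against -0.36 ± 0.10 in untreated tumours (limma adjusted p = 0.00686). Itgal, a chain of the integrin LFA-1 to which secreted ISG15 binds and a gene of leukocytes, fell by 0.84 with the antibody (limma adjusted p = 0.0487) and rose by 1.04 in CTL tumours (limma adjusted p = 0.0129). With the antibody Skp2 passed in 8 and Itgal in 6 of 12 alternatives, with CTLs both in 9, and neither passed without day 3 or day 5.

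The FAT10 partners are 8 genes, 7 of them tested, and none passed between antibody and IgG tumours (3 at an unadjusted p under 0.05, median -0.09). Over all genes 12.6% passed there. Nub1, which binds FAT10 and speeds its degradation in human cells, stood at 2.20, 2.19 and 2.14 in antibody tumours on days 3, 5 and 7, against 3.58, 2.93 and 2.59 in IgG tumours. On this probe, the brightest of Nub1, the arms did not overlap, as was so for 14.9% of all genes lower with the antibody. Its difference of -0.86 (SE 0.24) did not pass (limma adjusted p = 0.0547). On a second Nub1 probe the arms overlapped, at -0.99, -0.74 and -1.01 in antibody tumours against 0.39, -0.10 and -0.90 in IgG tumours. That probe stood at 0.43, -0.74 and -0.93 in CTL tumours on days 3, 5 and 7, against -0.58, -0.88 and -1.10 in untreated tumours. Against untreated tumours Nub1 rose by 0.84 in CTL tumours (SE 0.24, limma adjusted p = 0.0331), while Hdac6, a deacetylase that binds FAT10 and takes part in forming aggresomes, fell by 0.36 (limma adjusted p = 0.0240). They passed in 5 and 7 of 12 alternatives, neither without day 3 or day 5.

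The E1 and E2 of FAT10 had small differences beside those of Ubd. On its brightest probe Uba6 averaged -0.87 ± 0.14 in antibody tumours and -0.78 ± 0.14 in IgG tumours (log2 difference -0.09, SE 0.16, limma adjusted p = 0.747), and its difference in CTL against untreated tumours was 0.47 (limma adjusted p = 0.0586). A dimmer Uba6 probe disagreed: it stood at -3.82, -3.98 and -3.71 in antibody tumours on days 3, 5 and 7, against -4.10, -4.08 and -4.02 in IgG tumours. It stood at -4.03, -4.38 and -4.08 in CTL tumours, against -3.81, -3.81 and -4.19 in untreated tumours. None of these IgG and CTL arrays was well above background on that probe. The brighter Ube2z probe lay between 2.58 and 2.85 on all 14 arrays, with a difference of -0.04 (SE 0.09, limma adjusted p = 0.791) between antibody and IgG tumours and of 0.06 (limma adjusted p = 0.662) between CTL and untreated tumours. A dimmer Ube2z probe disagreed: it stood at -3.51, -3.85 and -3.28 in CTL tumours on days 3, 5 and 7, against -2.96, -2.78 and -2.96 in untreated tumours, with the CTL array of day 5 not well above background.

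**Figure D3:**
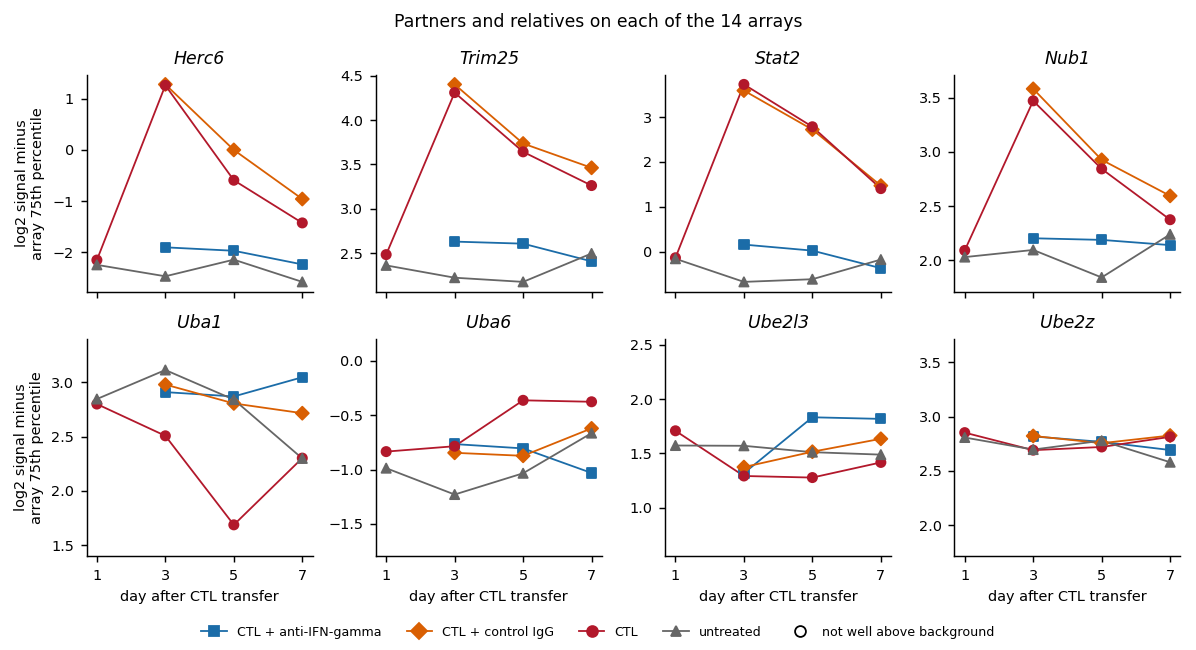
Log2 signal minus the array's 75th percentile (vertical axis, a scale per gene) against the day after CTL transfer for 8 partners and relatives, 1 point per array and 1 colour per arm. The upper row (Herc6, Trim25, Stat2, Nub1) is high in IgG and CTL tumours on day 3, with Stat2 at 3.59 and 3.73, while the brighter Ube2z probe in the lower row stays between 2.58 and 2.85.

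Close relatives of Ube2l6 and Uba7 in sequence had small differences too. Ube2l3, the ubiquitin E2 most similar to Ube2l6, averaged 1.66 ± 0.29 in antibody tumours and 1.51 ± 0.13 in IgG tumours (log2 difference 0.15, SE 0.13, limma adjusted p = 0.470), and its difference in CTL against untreated tumours was -0.19 (limma adjusted p = 0.277). Uba1, the ubiquitin E1 and relative of Uba7, differed by 0.11 (limma adjusted p = 0.768) with the antibody and by -0.59 (limma adjusted p = 0.0729) in CTL against untreated tumours, where the CTL value of day 5 was the lowest of all 14 at 1.69. A dimmer Uba1 probe did not show that low value: it stood at -1.24 in the CTL tumour of day 5, against -1.21 in the untreated tumour. Of 35 other E2s, 0 passed in antibody against IgG tumours (1 at an unadjusted p under 0.05), and in CTL against untreated tumours 1 rose and 4 fell. With the antibody 12.6% of all genes passed. With CTLs the E2 counts are 2.86% and 11.4%, beside 10.1% and 21.4% of all genes. Those named by the rule were Ube2w, which rose by 0.44, and Ube2t, Ube2c and Ube2k, which fell by 0.68, 0.63 and 0.52; they passed in 6, 10, 8 and 4 of 12 alternatives. Of 9 other E1s, 0 passed with the antibody (1 at an unadjusted p under 0.05). In CTL tumours 2 fell, which is 22.2% of them beside 21.4% of all genes. These were Uba2 by 0.56 and Sae1 by 0.52, the chains of the SUMO E1, which passed in 4 and 5 of 12 alternatives. None of these E2s and E1s passed without day 5.

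Among 18 other modifiers, Ubb, a ubiquitin gene, fell by 0.37 in antibody against IgG tumours (limma adjusted p = 0.0470) and Atg12 of autophagy fell by 0.41 (limma adjusted p = 0.0496). Ufm1, another ubiquitin-like modifier, rose by 0.47 with the antibody (limma adjusted p = 0.0383). In CTL against untreated tumours Ufm1 fell by 0.83 (limma adjusted p = 0.00234) and Nedd8 by 0.32 (limma adjusted p = 0.0401). With the antibody Ubb passed in only 3 of 12 alternatives, Atg12 in 4 and Ufm1 in 5, and none of them when any day was left out. With CTLs Nedd8 passed in 3 of 12, not with any day left out nor in the authors' deposited values, and Ufm1 in 10, not without day 3 or day 5. The differences of these modifiers are smaller than those of Ubd and Isg15, which were at least 3.20 in size on the same scale in both comparisons.

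Of the relatives of Usp18, 41 of 48 listed ubiquitin-specific proteases were tested. In antibody against IgG tumours 2 fell, Usp25 by 0.70 (limma adjusted p = 0.0215) and Usp11 by 0.40 (limma adjusted p = 0.0330), and 3 rose, Usp34, Usp28 and Usp31, by 0.32 to 0.47. That is 4.88% lower and 7.32% higher, beside 5.93% and 6.63% of all genes. All of these calls were lost when any day was left out, and Usp31 passed in only 2 of 12 alternatives, Usp11 in 5 and the others in 6. In CTL against untreated tumours 3 rose and 11 fell, which is 7.32% and 26.8% of them beside 10.1% and 21.4% of all genes. Usp42 rose by 1.25 (SE 0.25, limma adjusted p = 0.00846), Usp25 by 0.91 (SE 0.15, limma adjusted p = 0.00412) and Usp11 by 0.35 (limma adjusted p = 0.0284). Usp12, Usp34 and Usp1 fell by 0.71, 0.69 and 0.57. Usp25 passed in 11 of 12 alternatives, Usp12 in 10, Usp42, Usp34 and Usp1 in 9 and Usp11 in 6, none of them without day 5. Usp25 and Usp11 moved in the direction of Usp18 in both comparisons, at a far smaller size.

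**Figure D4:**
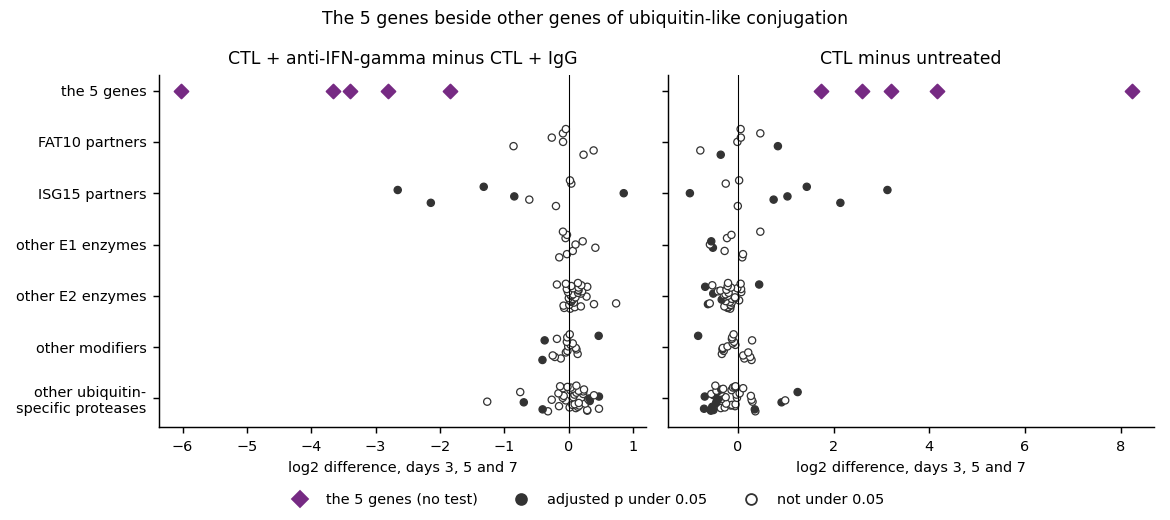
Log2 differences over days 3, 5 and 7 (horizontal axis), 1 point per gene, for the 5 genes and 6 lists of partners and relatives; filled points had a limma adjusted p under 0.05, and the diamonds of the 5 genes carry no test. The 5 genes run from -6.02 to -1.85 with the antibody and from 1.74 to 8.25 with CTLs, and most list genes lie near 0 beside Stat2 at -2.66 and 3.13; the values of Ubd include arrays not well above background.

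Ifng itself, the ligand that the antibody binds, was measured with the list of interferon genes. Its brighter probe stood at 0.23, -1.58 and -3.24 in antibody tumours on days 3, 5 and 7, against 2.05, 0.36 and -1.62 in IgG tumours. It stood at -2.86, 2.74, 0.45 and -1.55 in CTL tumours on days 1, 3, 5 and 7, against -4.44, -4.96, -4.32 and -6.05 in untreated tumours, of which only day 5 was well above background. On day 5, where both arrays were well above background on this probe, Ifng was 4.77 higher in the CTL than in the untreated tumour. A dimmer Ifng probe stood at -0.47 in the CTL and -6.00 in the untreated tumour of day 5, the latter not well above background. In the fit, which uses the measured values of all days, it rose in CTL tumours (limma adjusted p = 0.000498), by a log2 difference of 5.66 that was 3.03 to 6.24 over the 12 alternatives and rests on 2 untreated arrays not well above background. Its difference of -1.79 between antibody and IgG tumours did not pass (SE 0.56, limma adjusted p = 0.0747), though it was lower on each of the 3 days. Of 21 interferon genes 14 had a probe, and 6 of these, Ifnb1 among them, were well above background on none of the 14 arrays. Other type I interferon genes were detected. Ifna9, Ifna13 and both probes of Ifnab were well above background on all 14 arrays, Ifna1 on 6 and Ifna12 on 3. Among the 7 interferon genes that could be tested, Ifng was the 1 that passed in any of the 4 comparisons.

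Like the 5 genes, most T cell and macrophage markers were lower with the antibody and higher with CTLs. Over all genes 5.93% passed as lower in antibody than in IgG tumours and 10.1% as higher in CTL than in untreated tumours. Summed on the linear scale over days 3, 5 and 7, the 8 T cell markers gave 2.26 to 3.95 in antibody tumours, 4.24 to 10.4 in IgG tumours, 5.90 to 12.4 in CTL tumours and 1.52 to 2.27 in untreated tumours. Of them 5 fell with the antibody and 8 rose with CTLs, and Cd247 in antibody tumours and Cd3g, Cd247 and Cd8a in untreated tumours were not well above background on any of those days. The 8 macrophage markers gave 36.4 to 65.0 in antibody tumours, 58.4 to 111 in IgG tumours, 77.4 to 104 in CTL tumours and 21.7 to 24.1 in untreated tumours, with 5 lower with the antibody and 7 higher with CTLs. Itgam was not well above background in antibody or untreated tumours. The macrophage sums of antibody tumours overlapped those of IgG tumours and lay above those of untreated tumours. Against untreated tumours, 2 of the 8 T cell markers and 0 of the 8 macrophage markers passed as higher with the antibody. In either direction 0.158% of all genes passed there. The part of these cells in the differences of the 5 genes was not tested.

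The other marker lists moved less or the other way. Over all genes 6.63% passed as higher and 5.93% as lower in antibody than in IgG tumours. Between CTL and untreated tumours 10.1% passed as higher and 21.4% as lower with CTLs. The 7 measured dendritic cell markers summed to 5.81 to 6.02 in antibody tumours, 4.82 to 6.25 in IgG tumours, 4.63 to 4.94 in CTL tumours and 5.29 to 5.40 in untreated tumours. Of them 2 fell with the antibody, and 3 rose and 1 fell with CTLs. A sum weighs the brightest probes most, and here it went the other way from the median gene. The median log2 difference was 1.02 for CTL minus untreated tumours, with 5 of the 7 above 0. For antibody minus IgG tumours it was -0.34, with 6 of the 7 below 0. Between antibody and untreated tumours 1 of the 7 passed, as higher with the antibody. The 4 measured B cell markers summed to at most 0.471 in any arm, with 2 lower with the antibody and 2 higher with CTLs. The 6 endothelial markers summed to 7.43 to 7.95 in antibody tumours, 3.80 to 4.72 in IgG tumours, 4.62 to 5.59 in CTL tumours and 7.18 to 10.2 in untreated tumours, with 5 higher with the antibody and 4 lower with CTLs. The 7 melanocyte markers, which mark the B16F10 cells, summed to 1444 to 1658 in antibody tumours, 1517 to 1553 in IgG tumours, 1480 to 1724 in CTL tumours and 1297 to 1826 in untreated tumours. None of them passed in either comparison. The part of these cells too was not tested.

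Over the 14 arrays the 5 genes correlated with each other at Pearson r between 0.921 (Ubd and Ube2l6) and 0.986 (Isg15 and Uba7). The arrays share days, slides and arms, so these values describe a common course. The genes most like each of the 5 were ranked by Pearson r over the same 14 arrays among 13079 genes with an ordinary symbol. For Ubd they were Serpina3g (0.989), Cxcl9 (0.988), H2-DMa (0.988), Gbp6 (0.986) and Ms4a4c (0.986). Cxcl9 is a chemokine for activated T cells, H2-DMa a chain of the MHC class II peptide exchanger, and Gbp6 a guanylate-binding protein.

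For Isg15 they included Plec1 (0.995), Hsh2d (0.995), Dhx58 (0.995) and Irgb10 (0.994), of which Dhx58 is a regulator of RNA sensing. For Uba7 they were Irgb10 (0.991), Trim12a (0.990), Tmem140 (0.990), Ifit3 (0.988) and Vwa5a (0.988). For Ube2l6 they were Irf2 (0.990), Cd274 (0.988), Nt5dc3 (0.986), Ifi203 (0.985) and Ifi205 (0.985), where Cd274 encodes the checkpoint ligand PD-L1. For Usp18 they were Fbxo39 (0.998), Rtp4 (0.997), Oasl2 (0.997), Oas1a (0.997) and Oas1f (0.996), the last 3 of the oligoadenylate synthetase family of antiviral defence. Irgb10, an immunity-related GTPase, stood in the lists of both Isg15 and Uba7.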

How the data were processed

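Total RNA of pooled tumours was labelled with Cy3 and hybridised to 14 one-colour arrays, per the labels' protocols. The authors deposited scanner files of spot intensity, quantified in Agilent Feature Extraction, whose version is 9.5 in the submitters' processing notes and 9.5.3.1 per the file headers, and a table of log2 values. Each column of that deposited log2 table correlated at r = 1 with the log2 processed signal of its array and differed by a constant that puts its 75th percentile at about 0 (column medians -3.54 to -3.14), so its scale, centring and direction were settled.

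The log2 processed signal minus the array's 75th percentile was taken and spots of a probe were averaged without outlier spots, which left 29 probes lacking a value on at least 1 array. Genes needed a probe well above background on at least 3 arrays, and the probe with the highest mean stood for the gene. Of 41174 probes, 24375 were named through a RefSeq accession table, 16799 kept the file's name and 3 list probes were renamed by synonym. Probe positions are in build mm8.

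Genes were fitted with limma 3.58.1 in R 4.3.3 with arm and day as terms, on the 12 arrays of days 3, 5 and 7, with p-values adjusted over all genes by Benjamini-Hochberg (two-sided, threshold 0.05). A fit on all 14 arrays, which calls far fewer genes, is among the 12 alternatives. The p-values measure how same-day differences of pooled tumours vary between days. The day, which equals the slide per the file headers, pairs the arrays. Deviations of same-day arrays correlated at 0.0941, 0.256 and 0.172 for antibody with IgG on days 3, 5 and 7. For CTL with untreated they correlated at 0.147, -0.0231 and 0.0691. The pipeline was tested on simulated data.

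The 5 genes, the lists and the tests were chosen with earlier results of these data known. Named beside the 5 genes were, per list and comparison, up to 3 genes with the largest difference in each direction among those called with 1 sign on every day; 10 partners, relatives and ligands whatever their values; and the 5 genes most correlated with each, of which 1 is not reported here.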

Additional observations from a re-analysis of the deposited data

Results flagged for a closer look

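In a pair of genes, the difference between CTL and untreated tumours had one sign on day 1 and the opposite sign on each of days 3, 5 and 7. For Uba7 it was -0.0616 on day 1 and 0.84 to 2.52 on the later days. For Ube2l3 it was 0.14 on day 1 and -0.28 to -0.07 on the later days. Each day has 1 array per arm, and the change between days was not tested.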

How the results depend on the processing

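Each of the 5 genes kept its sign in all 12 alternatives between antibody and IgG and between CTL and untreated tumours. With normexp (offset 50) and quantile normalization the antibody difference was -3.89 for Ubd and -3.19 for Usp18, and the CTL difference of Ubd was 4.68. With the day 1 arrays added, the CTL difference of Ubd was 6.45, and those of IgG against CTL tumours were 0.52 for Ubd, 0.83 for Isg15, 0.37 for Uba7, 0.50 for Ube2l6 and 0.80 for Usp18. Only the CTL and untreated arms have a day 1 array. In that setting the IgG and antibody arms are thus set against arms that cover 1 more day. Against untreated tumours the antibody difference changed sign for Isg15 (-0.12), Uba7 (-0.19) and Ube2l6 (-0.29) with day 1 added. It also changed sign without day 3 for Uba7 (-0.10) and Ube2l6 (-0.38), and without day 5 for Uba7 (-0.05) and Ube2l6 (-0.03). Leaving out 1 day, the ranges for antibody minus IgG were -6.33 to -5.85 for Ubd, -3.86 to -2.94 for Isg15, -2.19 to -1.57 for Uba7, -3.25 to -2.35 for Ube2l6 and -3.79 to -3.46 for Usp18. For CTL minus untreated they were 7.26 to 8.84, 2.37 to 3.99, 1.36 to 2.20, 1.69 to 3.37 and 3.59 to 4.72 in the same order.

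Counts moved more. For antibody against IgG the count over all genes was 2139, and 2 with all 14 arrays, 1146 without the filter on dim probes and 50 (without day 5) to 1376 when a day was left out, with 399 without day 3. The 13 list genes became 0 with all 14 arrays, 5 with median centring, 8 with all probes averaged, 3 without the filter and 0 to 5 when a day was left out. For CTL against untreated the 5362 genes became 1839, 3294 without the filter and 661 (without day 5) to 5111 without a day, with 1107 without day 3, and the 31 list genes 5, 17 and 0 to 34. For antibody against untreated the 27 genes became 0 with all 14 arrays, 9 with normexp, 55 with median centring, 10 without the filter and 1 to 18 without a day. For IgG against CTL the 2 genes became 4 with all 14 arrays, 1 with normexp, 1 with a filter of 6 of 12 arrays and 0 to 2 without a day. Why these counts moved was not tested.

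Without the replicate block of day, which the labels give, 8 list genes were called between antibody and IgG, 0 genes between antibody and untreated and 4 between IgG and CTL tumours; other counts stayed within 1.5 times. Median centring moved the median of all genes from 0.06 to 0.15 for antibody minus IgG and from -0.10 to -0.22 for CTL minus untreated. Dim probes limit Ubd in untreated tumours to a bound.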
